A study of Mus musculus with 5 samples.

Results

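The collagen genes were taken as every gene of the MC38 tumor single-cell matrices whose symbol consists of Col, a number, the letter a and a further number. This rule gave 44 of the 33696 genes, and each of the 44 had at least 1 unique molecular identifier (UMI, the tag that counts 1 captured RNA molecule). The rule used no measured value.

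MC38 is a mouse colon adenocarcinoma line of the C57BL/6 strain. Male wild-type C57BL/6J mice aged 8 to 10 weeks carried subcutaneous tumors grown from implanted MC38 cells. They received either isotype control antibodies or combined anti-CTLA4 and anti–PD-1 antibodies (checkpoint inhibition, CPI) on days 3, 6 and 9, and then either vehicle or 20 mg/kg of the JAK inhibitor ABT-317 on day 12. Tumors were harvested on day 15, digested with collagenase, sorted into CD45+ and CD45- cells and loaded at equal numbers in 2 droplet reactions. Each reaction held cells of the 4 treatments (isotype, CPI, isotype + ABT-317 and CPI + ABT-317) marked by hashtag antibodies. A hashtag marked a treatment and not a mouse, so the 2 reactions may share mice, and p-values measure only the spread between the 2 reactions, which may be technical.

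The reactions held 435031691 and 377184807 gene UMIs in 37774 and 27582 barcodes. After the cell filters 16806 and 14747 cells carried exactly 1 hashtag, and they are the cells described here. The 2 reactions had 1416 barcodes in common, 3.75% of the first and 5.13% of the second. The median UMIs per cell were lowest under CPI (2053 and 2679), then isotype (5270 and 7358), and were 16678 and 22818 under CPI + ABT-317 and 16365 and 23929 under isotype + ABT-317. Cells were clustered without the collagen genes and without 52 genes of collagen maturation, processing and binding, and clusters were named from fixed marker lists. Fibroblast-like cells numbered 995 in reaction 1 and 761 in reaction 2, pericyte-like cells 126 and 94, endothelial-like cells 49 and 49, macrophage-like cells 5173 and 5115, and T-like cells 605 and 484. No cluster met the keratin and adhesion list set for tumor cells, whose summed level stayed between 1.84 and 3.33 CPM (counts-per-million scale, a gene's UMIs relative to all UMIs of the class) in both large clusters that lacked Ptprc, the gene for CD45. These clusters are called by their leading genes: the H19-led cluster (3329 and 3375 cells) and the Hmga1-led cluster (3313 and 3283 cells). They are summed as Ptprc-negative cells where the tumor cells would otherwise stand. The equal loading of sorted CD45+ and CD45- cells sets the ratio of these 2 kinds of cells, so numbers of cells are not compared, and all results are levels relative to the UMIs of a class.

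Collagens are secreted proteins whose chains wind around each other into a helix. Fibrillar collagens (types I, II, III, V, XI, XXIV and XXVII) form the load-bearing fibers of connective tissue, and fibroblasts are their main source in most organs. Type IV forms the sheet-like network of basement membranes under endothelium and around pericytes, type VI forms beaded microfibrils, and FACIT collagens such as types XII and XIV sit on the surface of fibers. Types XV and XVIII, the multiplexins, lie at the border of the basement membrane, and a fragment of type XVIII is endostatin, an inhibitor of vessel growth. In tumors these proteins make up much of the stroma around the malignant cells. The 44 genes fell into 11 fibrillar, 9 network-forming, 6 beaded-filament, 9 FACIT, 2 multiplexin, 4 transmembrane and 3 anchoring or other members.

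Promoters are shown for the type IV genes Col4a1 and Col4a2, which rose and fell together across the cell classes. They are also shown for Col3a1 and Col1a2, fibrillar genes that parted in the Ptprc-negative cells. Each sequence runs 5′ to 3′ on the gene's own strand from 250 bases before to 50 bases after the RefSeq start in the mouse build GRCm38.p6. Capitals mark the CCAAT motif and the GC box GGGCGG on either strand. Col3a1 lies on chromosome 1 (chr1:45311288-45311587, plus strand), Col1a2 on chromosome 6 (chr6:4505368-4505667, plus strand), Col4a1 on chromosome 8 (chr8:11312777-11313076, minus strand) and Col4a2 beside it (chr8:11312555-11312854, plus strand).
Col3a1: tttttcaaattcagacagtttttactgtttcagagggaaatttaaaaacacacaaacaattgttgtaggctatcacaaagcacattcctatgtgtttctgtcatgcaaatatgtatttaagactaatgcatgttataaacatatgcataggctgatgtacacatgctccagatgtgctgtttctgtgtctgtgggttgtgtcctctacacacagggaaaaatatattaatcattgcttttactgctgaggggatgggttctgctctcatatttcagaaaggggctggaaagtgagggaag
Col1a2: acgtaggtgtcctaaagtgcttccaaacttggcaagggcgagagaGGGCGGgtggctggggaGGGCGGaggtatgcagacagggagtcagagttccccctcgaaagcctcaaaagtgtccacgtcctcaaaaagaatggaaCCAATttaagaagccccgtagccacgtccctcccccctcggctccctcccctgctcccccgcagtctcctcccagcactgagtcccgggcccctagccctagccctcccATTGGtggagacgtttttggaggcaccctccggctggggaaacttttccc
Col4a1: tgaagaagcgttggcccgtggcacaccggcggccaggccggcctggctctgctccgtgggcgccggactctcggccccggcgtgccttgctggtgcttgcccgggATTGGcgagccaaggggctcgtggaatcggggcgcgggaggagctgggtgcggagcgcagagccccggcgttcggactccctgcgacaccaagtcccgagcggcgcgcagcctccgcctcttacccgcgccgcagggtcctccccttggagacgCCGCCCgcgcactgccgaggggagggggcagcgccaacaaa
Col4a2: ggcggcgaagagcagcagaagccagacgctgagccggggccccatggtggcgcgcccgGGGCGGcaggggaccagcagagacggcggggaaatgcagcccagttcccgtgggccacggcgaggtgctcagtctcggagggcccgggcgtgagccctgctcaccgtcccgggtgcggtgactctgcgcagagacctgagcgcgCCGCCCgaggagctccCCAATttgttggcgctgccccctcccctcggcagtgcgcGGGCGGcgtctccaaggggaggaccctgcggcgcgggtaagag

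The windows of Col4a1 and Col4a2 share 78 bases (chr8:11312777-11312854), because the genes start 21 bases apart and are read from opposite strands. The Col1a2 window held 2 CCAAT motifs and 2 GC boxes, that of Col4a1 held 1 and 1, and that of Col4a2 held 1 and 3. The Col3a1 window held neither motif and 1 TATAAA. Among all 32851 promoter windows, 37.4% held CCAAT, 35.7% held GGGCGG, 13.6% held TATAAA and 7.81% held the AP-1 motif TGANTCA, each searched on both strands. Of the 38 windows of 35 collagen genes, 13 held CCAAT, 23 GGGCGG, 5 TATAAA and 1 TGANTCA. None of the capitalized motifs overlapped another in these 4 windows. These matches describe letters in a window and not bound sites.

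In fibroblast-like cells collagen made up 6.95% of all UMIs in reaction 1 and 7.87% in reaction 2. Fibrillar members alone held 6.46% and 7.35%. The collagen share was 3.53% when barcodes with 0 or several hashtags were included and 0.539% when cells were classed one by one from their markers. CPI tumors gave 90.5% and 94.5% of the fibroblast-like cells, so levels over all treatments are close to those under CPI. Levels are given as CPM of the class's summed UMIs, and since the 5′ library counts 1 end of each molecule, the levels of different genes can be set side by side without a length correction. Col3a1, the chain of type III collagen, was the highest at 23626 and 27439 CPM (25532 ± 2697, SD, n = 2 reactions). Col1a1, the major chain of type I collagen, stood at 20966 and 23952 CPM (22459 ± 2111, SD, n = 2). Col1a2, its partner chain, stood at 17192 and 19111 CPM (18151 ± 1357, SD, n = 2). The ranges of Col3a1 and Col1a1 overlapped between the reactions, and both values of Col1a2 lay below those of Col1a1. The type V chains, which regulate fiber width, came far below: Col5a2 was at 1218 and 1256 CPM and Col5a1 at 1166 and 1246 CPM. Col6a2, a chain of the type VI microfibril, was at 1213 and 1310 CPM and overlapped both. Col14a1, the FACIT collagen undulin, averaged 1013 CPM, Col6a3 826 CPM and Col6a1 801 CPM, while Col5a3 averaged 407 CPM, Col12a1 192 CPM and Col16a1 182 CPM. The basement membrane chains were low in these cells, with Col4a1 at 157 CPM and Col4a2 at 106 CPM on average, as were Col15a1 at 88.1 CPM and Col18a1 at 50.6 CPM. The fibroblast marker list summed to 14817 and 17029 CPM in the class, against 185 and 79.3 CPM in macrophage-like cells.

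**Figure D1:**
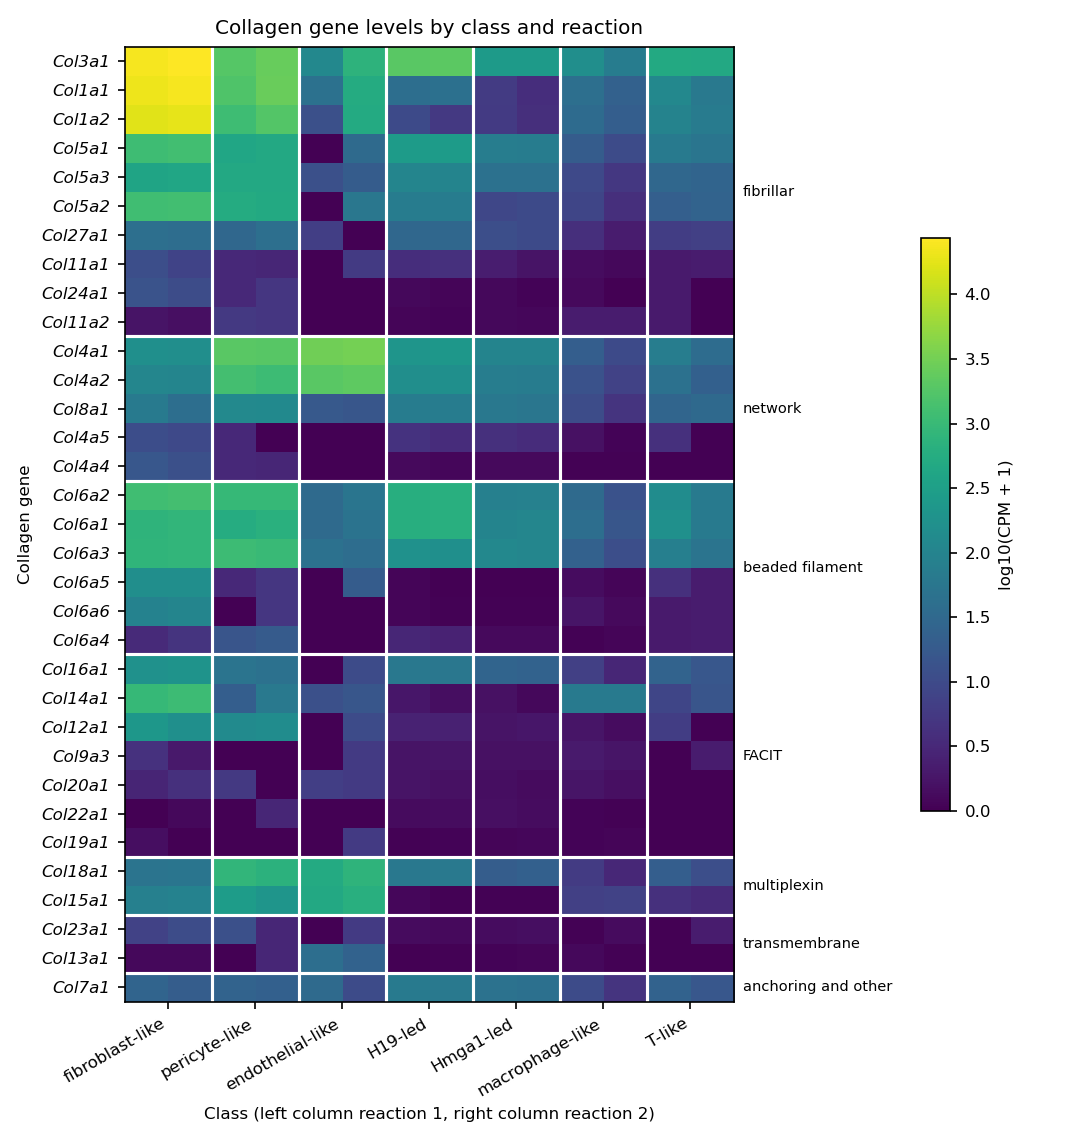
Heat map of the level, as log10 of CPM plus 1, of the 33 collagen genes with at least 50 UMIs (rows, grouped by family) in 7 cell classes, with reactions 1 and 2 side by side (columns). A brighter color marks a higher level. Most fibrillar rows are brightest in the fibroblast-like columns, where Col3a1 reached 23626 and 27439 CPM. Col5a3 and Col11a2 are highest in the pericyte-like columns, and the Col4a1 and Col4a2 rows are brightest in the endothelial-like columns.

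Endothelial-like cells put 0.647% and 0.895% of their UMIs into collagen, and most of it was basement membrane collagen, with network-forming members at 0.507% and 0.540%. The collagen share was 0.440% with barcodes of any hashtag included. Col4a1 stood at 3009 and 3189 CPM (3099 ± 127, SD, n = 2) and Col4a2 at 2041 and 2195 CPM (2118 ± 109, SD, n = 2). Col18a1, the endostatin precursor, was at 517 and 777 CPM and Col15a1 at 473 and 641 CPM. These were the leading collagens of the class in both reactions except for the fibrillar genes of reaction 2. Col3a1 was at 117 and 730 CPM and Col1a1 at 44.5 and 532 CPM, so the reactions lay far apart. In reaction 2 a single cell held 321 of the 376 type I and type III UMIs of the class, and without the highest cell of each reaction these genes summed to 149 and 267 CPM. These sums lay below the level of Col3a1 alone in T-like cells, given below, a class that should make none. They cannot be read as expression. Some low members were highest in endothelial-like cells: Col13a1, a transmembrane collagen, averaged 31.2 CPM and Col28a1 18.2 CPM, each from few UMIs. The endothelial marker list summed to 6096 and 8191 CPM in these cells, the fibroblast list to 256 and 716 CPM, the macrophage list to 1168 and 410 CPM and the pericyte list to 22.2 and 155 CPM.

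Pericyte-like cells carried both fibrillar and basement membrane collagens, with 1.35% and 1.55% of UMIs from collagen. Fibrillar members held 0.613% and 0.851%, network-forming members 0.343% and 0.316%, beaded-filament members 0.260% and 0.263% and multiplexins 0.110% and 0.0921%. Col4a1 at 1994 and 1923 CPM lay beside Col3a1 at 1851 and 2534 CPM and Col1a1 at 1672 and 2696 CPM, and these 3 levels could not be ordered beyond their spread. Col1a2 was at 1135 and 1789 CPM, Col4a2 at 1305 and 1107 CPM and Col6a3 at 1090 and 1000 CPM. Col18a1 averaged 771 CPM, within the range of the endothelial-like cells.

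The Ptprc-negative clusters held much less collagen, and a different mixture. In the H19-led cluster it was 0.458% and 0.466% of UMIs, and in the Hmga1-led cluster 0.104% and 0.102%. Over both clusters it was 0.249% and 0.252%, and 0.480% in cells with fewer than 2500 genes. Isotype tumors gave 53.3% and 54.7% of the H19-led cells and CPI tumors 0.871% and 0.444%. Type III dominated in the H19-led cluster, with Col3a1 at 2032 and 2081 CPM, close to the level of pericyte-like cells, whereas Col1a1 averaged 40.6 CPM. The ratio of Col1a1 to Col3a1 was therefore 0.0192 and 0.0203 in the H19-led cluster, against 0.887 and 0.873 in fibroblast-like cells and 0.903 and 1.06 in pericyte-like cells. Type VI came next, with Col6a2 at 613 and 623 CPM and Col6a1 at 595 and 633 CPM, followed by Col5a1 at 273 and 271 CPM, Col4a1 at 208 and 219 CPM and Col6a3 at 173 and 163 CPM. Col7a1, the anchoring-fibril collagen of epithelial basement membranes, averaged 63.7 CPM and was higher there than in the 5 other classes compared, taken over all treatments. In the Hmga1-led cluster Col3a1 was at 259 and 257 CPM, Col6a3 at 119 and 107 CPM, Col6a1 at 97.7 and 109 CPM, Col4a1 at 98.5 and 98.1 CPM, Col6a2 at 86.2 and 88.8 CPM, and Col1a1 averaged 3.93 CPM. The fibroblast marker list summed to 2099 and 2341 CPM in the H19-led cluster and to 665 and 778 CPM in the Hmga1-led cluster. T-like cells, which should make no collagen, held 0.146% and 0.106% of their UMIs in collagen, above the Hmga1-led shares. Hmga1-led Col3a1, and Col1a1 in both clusters, also lay below their T-like levels, given below. Depth differed between these classes, and the part of background in the Ptprc-negative values was not tested.

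Macrophage-like cells held 0.0504% and 0.0273% of UMIs in collagen, and 0.171% when cells were classed one by one. T-like cells, a class that should make none, held 0.146% and 0.106%, so most macrophage values cannot be read as expression. Col3a1 was at 157 and 73.4 CPM in macrophage-like cells and at 497 and 482 CPM in T-like cells, and Col6a1 at 38.6 and 14.3 CPM against 166 and 67.8 CPM. Col1a1 was at 41.6 and 22.8 CPM against 116 and 61.9 CPM. Col14a1 was higher in macrophage-like than in T-like cells taken over all treatments. It stood at 63.1 CPM in both reactions of the macrophage-like cells and at 7.40 and 14.03 CPM in those of the T-like cells. The treatments differed between these classes, since 83.2% and 83.6% of macrophage-like cells came from isotype tumors and 90.2% and 90.5% of T-like cells from CPI tumors. Under isotype Col14a1 was at 64.4 and 65.3 CPM in macrophage-like cells and at 15.1 and 61.1 CPM in T-like cells, the latter from 3 and 9 UMIs in 52 and 37 cells. Under CPI it was at 6.8 and 8.6 CPM in macrophage-like cells and at 5.78 and 4.87 CPM in T-like cells, and the macrophage-like values lay within the counting intervals of the T-like ones. Over all treatments at least 1 UMI of Col14a1 was found in 15.3% and 18.8% of macrophage-like cells, 0.992% and 1.86% of T-like cells, 1.26% and 0.978% of H19-led cells and 1.39% and 0.822% of Hmga1-led cells. Median depth was 2773 and 3595 UMIs per macrophage-like cell, 1121 and 1040 per T-like cell, 15673 and 19665 per H19-led cell and 23746 and 30400 per Hmga1-led cell. Cells with at least 1000 UMIs were also thinned to 1000 UMIs each, and cells with fewer were left out of this. The Col14a1 shares were then 6.16% and 6.01% in macrophage-like cells, 1.28% and 1.13% in T-like cells and 54.1% and 58.3% in fibroblast-like cells. The T-like medians lay near this limit, so many T-like cells were left out. The ratio of Col14a1 to Col1a1 was 1.52 and 2.77 in macrophage-like cells, 0.0442 and 0.0459 in fibroblast-like cells and 0.0636 and 0.226 in T-like cells. The same thinning of cells with at least 1000 UMIs left Col3a1 in 15.0% and 7.56% of macrophage-like cells and in 27.4% and 15.8% of T-like cells.

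**Figure D2:**
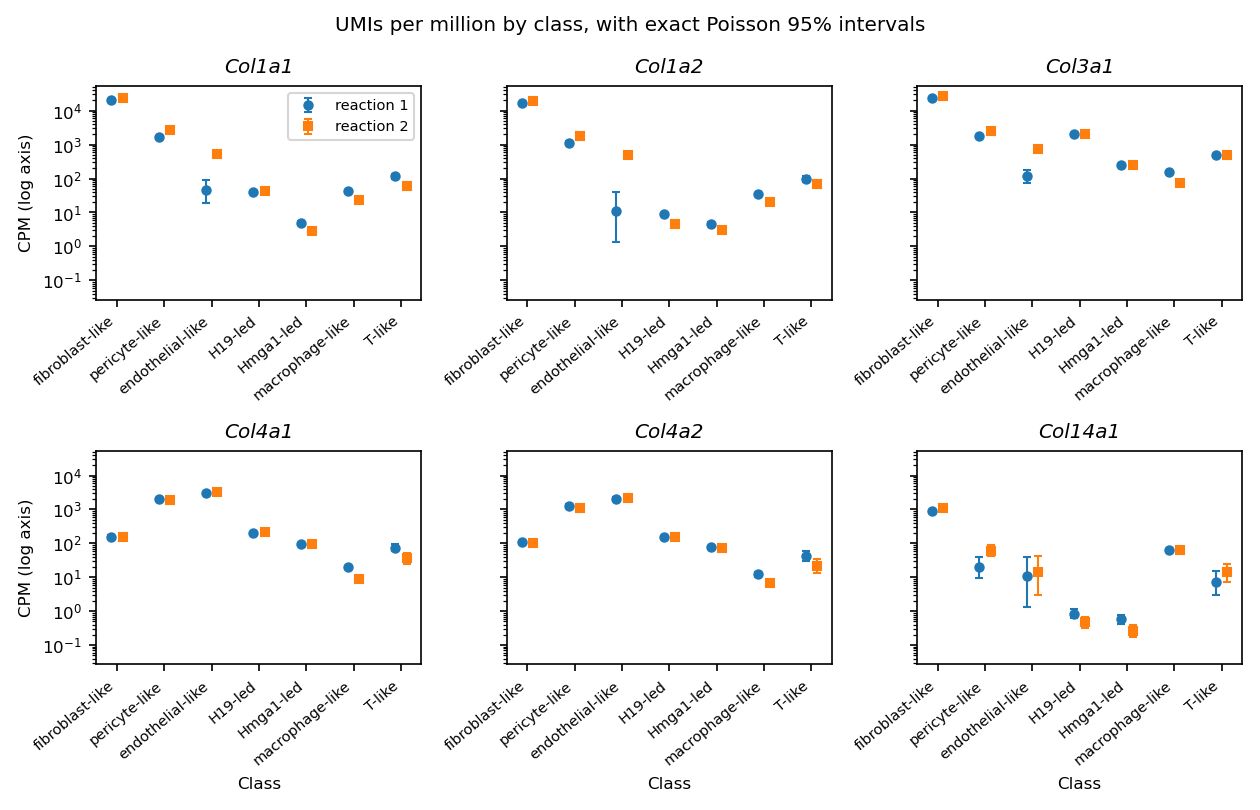
CPM on a log axis of Col1a1, Col1a2, Col3a1, Col4a1, Col4a2 and Col14a1 by cell class, 1 point per reaction, with exact 95% Poisson intervals that cover counting error only. Col4a1 and Col4a2 peak in endothelial-like cells at 3009 and 3189 CPM and 2041 and 2195 CPM, and Col14a1 stands at 63.1 CPM in macrophage-like cells.

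Among the 33 members with at least 50 UMIs over fibroblast-like, pericyte-like, endothelial-like, macrophage-like and both kinds of Ptprc-negative cells, 18 were highest in fibroblast-like cells over all treatments, 7 in endothelial-like cells, 7 in pericyte-like cells and 1, Col7a1, in the H19-led cluster. The same tally was not made over all genes, so these counts cannot be set against the genes at large. The classes differed in their treatments, so the tally was repeated in cells of 1 treatment. In isotype tumors alone 14 of the 18 were still highest in fibroblast-like cells, while Col6a1, Col6a2 and Col27a1 were highest in the H19-led cluster and Col24a1 in pericyte-like cells. Col6a1 was then at 738 and 786 CPM in the H19-led cluster and at 470 and 364 CPM in fibroblast-like cells. The isotype lead of Col24a1 was small, at 5.81 CPM against 5.32 CPM in fibroblast-like cells. This tally rests on 30 and 18 pericyte-like and 8 and 7 endothelial-like cells. In CPI tumors alone 15 of the 18 were highest in fibroblast-like cells, and Col12a1, Col23a1 and Col27a1 were highest in pericyte-like cells. Col7a1 then averaged 26.0 CPM in 39 and 39 endothelial-like cells and 21.4 CPM in 29 and 15 H19-led cells, too few to order these classes. Over all treatments the pericyte-like cells led for Col6a3, Col5a3, Col8a1, a short-chain network collagen of vessel walls, Col18a1 and the low Col6a4, Col11a2 and Col22a1. All 7 held in CPI tumors alone and 5 in isotype tumors alone. Under isotype Col18a1 was highest in endothelial-like cells (666 against 478 CPM) and Col22a1 in the Hmga1-led cluster. Over all treatments the endothelial-like cells led for Col4a1, Col4a2, Col15a1, Col13a1 and the low Col19a1, Col20a1 and Col9a3. Of these 7, 6 held in isotype tumors alone, without Col19a1, and 6 in CPI tumors alone, without Col9a3. Of these low leads Col19a1 and Col9a3 rested on 0 and 1 UMI and Col20a1 on 1 and 1 UMI in endothelial-like cells, and Col22a1 rested on 0 and 1 UMI and Col11a2 on 2 and 2 UMIs in pericyte-like cells, too few to order the classes. For Col18a1, Col27a1, Col23a1, Col22a1, Col19a1 and Col9a3 the leading class overlapped the next between reactions. The other 11 members stayed under 50 UMIs, among them Col2a1 and Col10a1 of cartilage with 7 and 6 UMIs, and Col4a3, Col4a6 and Col17a1 of epithelial membranes with 15, 12 and 9 UMIs.

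The ratio of Col4a2 to Col4a1 varied less between classes than the ratios within types I and VI. The ratio of Col4a2 to Col4a1 lay between 0.576 and 0.775 in the 12 values of the fibroblast-like, pericyte-like, endothelial-like, H19-led, Hmga1-led and macrophage-like cells. The ratio of Col6a2 to Col6a1 was 1.59 and 1.56 in fibroblast-like cells, 1.66 and 1.42 in pericyte-like cells, 1.03 and 0.984 in the H19-led cluster and 0.881 and 0.816 in the Hmga1-led cluster. The ratio of Col1a2 to Col1a1 was 0.820 and 0.798 in fibroblast-like cells and 0.679 and 0.663 in pericyte-like cells, 0.918 and 1.05 in the Hmga1-led cluster and 0.226 and 0.107 in the H19-led cluster. It was 0.827 and 1.13 in T-like cells, which should make none, so the Hmga1-led ratios cannot be told apart from background. The H19-led ratios rest on 489 and 322 UMIs of Col1a2.

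Fibroblast-like cells were compared with endothelial-like cells to ask which collagens separate stroma from vessel lining. Of 33 members tested, 16 were higher in fibroblast-like cells and 6 in endothelial-like cells by edgeR's quasi-likelihood test with Benjamini-Hochberg adjustment at 0.05, where 16.2% of all 14521 genes passed (9.01% higher and 7.18% lower). The higher members comprised 7 fibrillar, 5 beaded-filament, 3 FACIT and 1 network-forming gene. Col14a1 was higher by 6.77 on the log2 scale (SE 0.44, adjusted p = 2.91e-07), Col1a1 by 6.68 (SE 0.66, adjusted p = 9.83e-06), Col3a1 by 6.32 (SE 0.61, adjusted p = 8.19e-06), Col5a1 by 6.54, Col5a2 by 5.80 and Col6a2 by 5.32. In endothelial-like cells Col5a1 had 0 and 7 UMIs and Col5a2 0 and 12 UMIs in the 2 reactions, so neither has a defined fold without the sum of reaction 2, and without that of reaction 1 they were higher by 5.61 and 4.87. The type I and III values turned on the endothelial-like sum of reaction 2, without which Col1a1 was higher by 9.52 and Col1a2 by 11.2, and without its 1 high cell Col1a1 was higher by 8.86 and Col3a1 by 8.16. Col6a6 had 813 UMIs against 0 and was at least 12.9-fold higher. The lower members were basement membrane and vessel collagens: Col4a2 had a log2 difference of -3.86 (SE 0.23, adjusted p = 1.62e-07), Col4a1 of -3.84 (SE 0.28, adjusted p = 6.77e-07), Col18a1 of -3.23, Col15a1 of -2.21 and Col28a1 of -4.16. Col13a1 rested on 2 UMIs against 12, a ratio of 0.00791 with a 95% counting interval of 0.00086 to 0.0355. The median log2 difference of the tested members was 5.19, or 2.20 with genes at 0 UMIs set at their bound, against 0.31 over all genes. In cells of CPI tumors alone 16 members were higher and 4 lower of 21 tested, where 24.2% of 9561 genes passed (13.7% higher and 10.5% lower).

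Of the genes that make and handle collagen, most moved with the fibrillar members. In fibroblast-like against endothelial-like cells 16 of 22 maturation genes (hydroxylases, chaperones and glycosyltransferases) were higher and 2 lower, with P4ha2, a subunit of prolyl 4-hydroxylase, 2.59 higher (167 against 37.9 CPM) and P4hb, its partner, 1.45 higher, both on the log2 scale. Of 18 processing and crosslinking genes 14 were higher and 2 lower, led by Lum and by Bgn, a small proteoglycan, at 5.10. Lum and Dcn are counted here and are also on the marker list that named the fibroblast-like class. Their direction was therefore partly set by the naming. Of 10 receptor and uptake genes 3 were higher and 3 lower. Mrc2, the collagen uptake receptor, was higher by 5.93, and Itga1, the α chain of a collagen-binding integrin, had a log2 difference of -3.72, with 7.61 CPM against 136 CPM.

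Against Ptprc-negative cells 26 of 33 members were higher in fibroblast-like cells and 1 lower, where 63.7% of all genes passed (31.6% higher and 32.1% lower). All 6 beaded-filament and 5 tested FACIT members and 9 of 10 tested fibrillar members were higher. Col1a2 was higher by 11.6 on the log2 scale, Col6a5 by 11.3, Col14a1 by 10.7 and Col1a1 by 9.99, while Col3a1 was higher by only 4.47 (SE 0.54) and Col6a2 and Col6a1 by 1.83 and 1.14. The fibroblast-like sums held mostly CPI cells and the Ptprc-negative sums under 1% CPI cells. In isotype tumors alone Col6a1 turned direction at -0.18 (adjusted p = 0.784), Col6a2 was at 0.09 (adjusted p = 0.912) and Col3a1 at 2.59, and in CPI tumors alone they were higher by 2.82, 3.25 and 6.62. Col7a1 was lower, with a log2 difference of -1.41 (SE 0.28, adjusted p = 7.54e-04). Col8a1 had a log2 difference of -0.51, which passed only with the reaction as a block (adjusted p = 0.0265, with 67.5% of all genes past the threshold). The median was 2.38 for the members and -0.05 for all genes. Of the lists, 11 maturation genes were higher and 4 lower, 17 processing genes were higher and 7 receptor genes were higher, with P4ha3 higher by 8.23, Adamts2, the procollagen N-proteinase, by 11.0 and Itga11, a fibroblast collagen receptor chain, by 5.21. The processing list again holds the class markers Lum and Dcn. In cells of isotype tumors alone 11 of 28 tested members were higher and 0 lower by the same test, where 15.3% of 14175 genes passed (10.1% higher and 5.24% lower). In cells of CPI tumors alone 17 of 21 were higher and 1 lower, where 58.8% of 9561 genes passed (35.3% higher and 23.5% lower).

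Against macrophage-like cells 30 of 33 members were higher in fibroblast-like cells and 0 lower, where 59.1% of all genes passed (29.9% higher and 29.1% lower) and 62.9% with the reaction as a block, which gave the same counts of members. The log2 difference was 7.67 for Col3a1, 3.86 (SE 0.25) for Col14a1 and 3.33 for Col4a1, and Col8a2 was at least 36.3-fold higher. When cells were classed one by one Col14a1 stood at -0.036 (adjusted p = 0.893) and Col15a1, at 3.67 by cluster, at -0.39 (adjusted p = 0.132), while Col3a1 was higher by 1.72 and Col4a1 by 0.89. The fibroblast-like sums were mostly CPI cells and the macrophage-like sums mostly isotype cells. In isotype tumors alone 23 of 28 members were higher and 0 lower, where 28.2% of all genes passed (12.3% higher and 15.9% lower), with Col14a1 higher by 2.23. In CPI tumors alone 20 of 21 were higher and 0 lower, where 42.8% passed (22.5% higher and 20.3% lower), with Col14a1 higher by 7.19. The median was 4.81 for the members and -0.01 for all genes. Of the lists 18 maturation genes were higher and 1 lower, 17 processing genes were higher and 1 lower, and 7 receptor genes were higher and 2 lower. The processing list holds Lum and Dcn, markers that named the fibroblast-like class, and the receptor list Mrc1, a marker that named the macrophage-like cells. Fkbp14, a collagen prolyl isomerase, was higher by 5.61, Loxl1, a lysyl oxidase that crosslinks matrix, by 9.52 and Mrc2 by 6.999.

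Pericyte-like and endothelial-like cells were set against each other since both border the vessel basement membrane. Of 34 tested members 12 were higher in pericyte-like cells and 3 lower, where 8.26% of 15104 genes passed (3.54% higher and 4.72% lower). Col5a3 was higher by 5.02 on the log2 scale, Col6a3 by 4.74, Col5a1 by 4.69, Col6a2 by 4.50, Col5a2 by 4.15, Col6a1 by 3.97 and Col8a1 by 3.09. Without the endothelial-like sum of reaction 1 Col5a1 was higher by 3.73 and Col5a2 by 3.18, and without that of reaction 2 the remaining sum held 0 UMIs of either. Col1a1 was higher by 2.92, Col1a2 by 2.48 and Col3a1 by 2.38. Col4a2 had a log2 difference of -0.75 and Col15a1 of -1.16, and each lost its call when 1 of several sums was left out (Col4a2 in 3 of 4 cases, Col15a1 in 2). Under the reaction block, where 8.19% of all genes passed, Col27a1 lost its call (adjusted p = 0.0627) and Col28a1, with 0 UMIs against 7, was called lower (adjusted p = 0.0288). Without the endothelial-like sum of reaction 2 the log2 difference was 5.72 for Col1a1, 7.14 for Col1a2 and 4.33 for Col3a1. Leaving out only its cell with most type I and III UMIs gave 5.10, 5.64 and 4.22 for these genes, with 13 members higher and 3 lower where 8.44% of all genes passed (3.7% higher and 4.74% lower). Col1a2 lost its call without the endothelial-like sum of reaction 1 (1.51, adjusted p = 0.0654) or the pericyte-like sum of reaction 2 (2.06, adjusted p = 0.176). Bgn was higher by 3.81, Loxl2 by 3.95 and Itga1 by 2.01 (530 against 136 CPM), while Itga2, the α chain of another collagen-binding integrin, had a log2 difference of -4.21 from 3 against 24 UMIs.

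Of 34 tested members 15 were higher in the H19-led than in the Hmga1-led cluster and 0 lower, where 37.7% of 15104 genes passed (15.8% higher and 21.9% lower). They comprised 7 of 10 fibrillar, 3 of 6 beaded-filament, 2 of 6 network-forming and 2 of 5 FACIT members and 1 of 2 multiplexins. Col1a1 was higher by 3.09 on the log2 scale, Col5a2 by 2.83, Col3a1 by 2.71 (SE 0.45, adjusted p = 2.63e-04), Col6a2 by 2.53 (SE 0.28, adjusted p = 7.11e-06), Col6a1 by 2.28, Col6a4 by 2.27 and Col5a1 by 1.60. The basement membrane chains differed less, with Col4a1 higher by 0.83 and Col4a2 by 0.80. With the reaction as a block 56.3% of all genes passed, and Col7a1, higher by 0.24 (adjusted p = 0.0182), and Col13a1, with a log2 difference of -1.53 (adjusted p = 0.0452), were added. Of the lists 10 maturation genes were higher (15 with the block), 12 processing genes were higher and 3 lower, and 3 receptor genes were higher and 1 lower. Fkbp14 was higher by 1.80, Lum by 5.63, Bgn by 3.95 and Mrc2 by 1.26.

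Within fibroblast-like cells, CPI tumors were compared with isotype tumors. Isotype tumors gave 58 and 25 fibroblast-like cells and CPI tumors 900 and 719, and the ABT-317 arms (10 and 15 cells with CPI, 27 and 2 with isotype) were too small for a test. Col3a1 stood at 9693 and 7577 CPM under isotype and at 27044 and 29442 CPM under CPI. Col1a1 stood at 9296 and 6116 CPM under isotype and at 23827 and 25581 CPM under CPI. Col1a2 stood at 6913 and 4679 CPM under isotype and at 19672 and 20480 CPM under CPI. In each of these genes both CPI reactions lay above both isotype reactions.

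Of 26 members tested 15 were higher under CPI and 2 lower, where 14.8% of 10366 genes passed (7.15% higher and 7.64% lower). The log2 differences were 1.79 for Col3a1 (SE 0.17, adjusted p = 1.94e-08), 1.87 for Col1a2 (SE 0.19, adjusted p = 2.22e-08) and 1.76 for Col1a1 (SE 0.19, adjusted p = 7.01e-08). Col5a3 was higher by 2.05 (132 and 92.7 against 445 and 453 CPM), Col6a5 by 2.48 (42.5 and 21.4 against 184 and 172 CPM), Col6a2 by 1.57 (555 and 424 against 1369 and 1399 CPM), Col14a1 by 1.58 (406 and 381 against 1053 and 1167 CPM) and Col6a3 by 1.63 (373 and 239 against 920 and 901 CPM). All 5 tested beaded-filament members and 6 of 9 tested fibrillar members were higher. Col15a1 was higher by 1.36 (40.1 and 39.2 against 95.6 and 97.8 CPM). Col4a4, the 1 network-forming member called higher, rested on 2 isotype UMIs, with a ratio of 5.20 and a 95% counting interval of 1.40 to 43.5.

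The members that fell under CPI were Col8a1 and Col7a1. Col8a1 was at 177 and 85.5 CPM under isotype and at 33.1 and 30.9 CPM under CPI, a log2 difference of -2.02 (SE 0.27, adjusted p = 3.54e-06). Col7a1 was at 54.3 and 42.8 CPM under isotype and at 20.5 and 17.4 CPM under CPI, a log2 difference of -1.30 (SE 0.34, adjusted p = 0.0080). Col4a1, Col4a2 and Col18a1 did not pass the test, with Col4a1 at 153 and 153 CPM under isotype and 166 and 157 CPM under CPI, Col4a2 at 130 and 111 against 106 and 99.4 CPM, and Col18a1 at 59.0 and 35.6 against 50.0 and 53.6 CPM. Col12a1 had a log2 difference of -0.65 (adjusted p = 0.0658), which passed with the reaction as a block (adjusted p = 0.0137, with 18.7% of all genes past the threshold). The median log2 difference was 1.24 for the members and 0.02 for all genes. Without a filter on low counts the same log2 differences kept their direction but 0 members passed, with an adjusted p of 0.0990 for Col1a1, and 0% of all 18877 genes passed.

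Markers of other cells moved with this comparison. In the isotype fibroblast-like cells the macrophage list summed to 2098 and 3892 CPM and the leading genes of the Hmga1-led cluster to 875 and 919 CPM, against 657 and 456 CPM and 267 and 264 CPM under CPI. The leading genes of the H19-led cluster summed to 1274 and 1176 CPM under isotype and 1579 and 1801 CPM under CPI, and the cycling list to 519 and 741 against 190 and 141 CPM. The fibroblast list summed to 6720 and 6226 CPM under isotype and to 16763 and 18122 CPM under CPI, so markers that define the class rose beside the collagens. The collagen share of UMIs was 3.03% and 2.18% under isotype and 7.91% and 8.41% under CPI. In cells with under 1000 CPM of both the macrophage list and the leading Hmga1-cluster genes it was 3.31% and 4.31% under isotype (28 and 8 cells) and 8.47% and 9.13% under CPI (643 and 596 cells). The median cell held 5560 and 6115 UMIs under isotype and 3590 and 4629 UMIs under CPI.

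**Figure D3:**
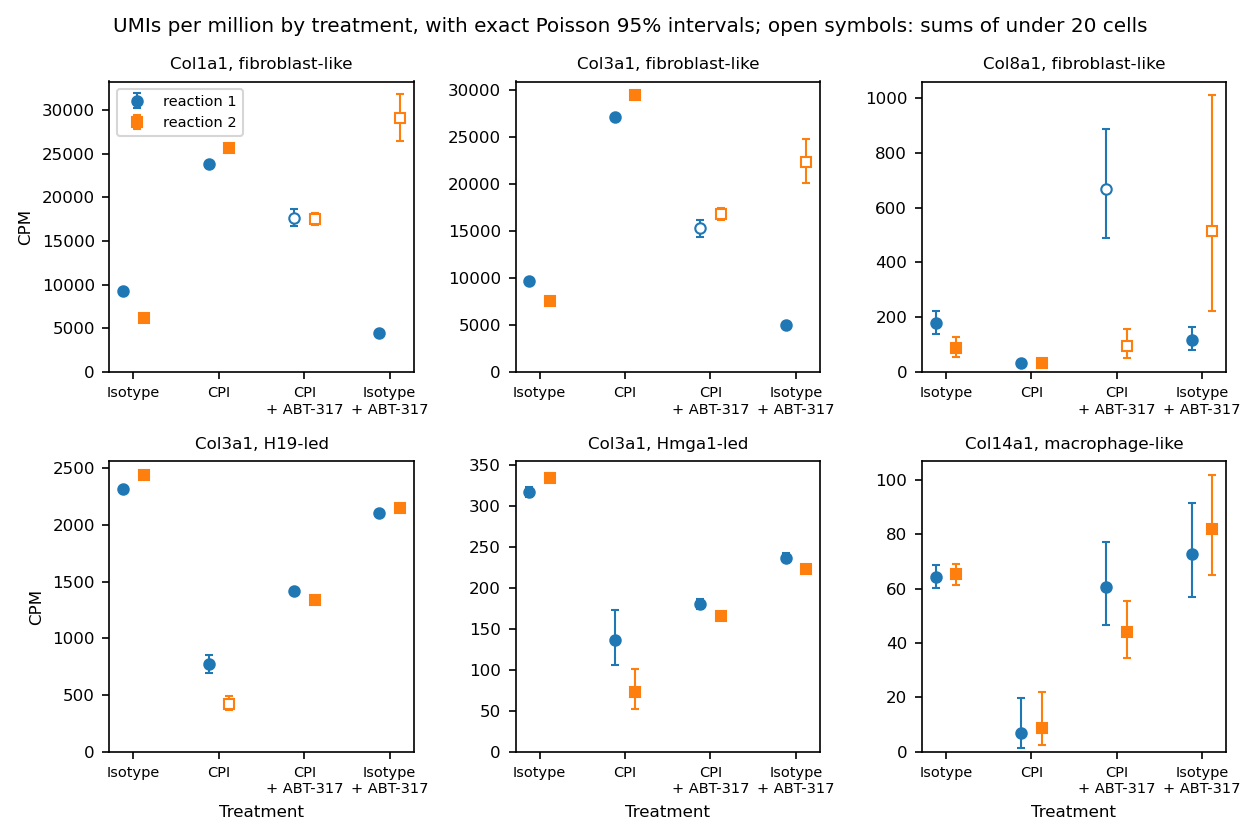
CPM by treatment (isotype, isotype + ABT-317, CPI, CPI + ABT-317), 1 point per reaction, for Col1a1, Col3a1 and Col8a1 in fibroblast-like cells, Col3a1 in the H19-led and Hmga1-led clusters and Col14a1 in macrophage-like cells. Open symbols mark sums of fewer than 20 cells, error bars are exact 95% Poisson intervals, and fibroblast Col3a1 stands at 9693 and 7577 CPM under isotype against 27044 and 29442 CPM under CPI.

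The 10 and 15 fibroblast-like cells of CPI + ABT-317 tumors had Col3a1 at 15240 and 16777 CPM and Col1a1 at 17666 and 17464 CPM, values between those of isotype and CPI. Their Col8a1 level was 667 and 93.3 CPM. The isotype + ABT-317 cells had Col3a1 at 4992 CPM in 27 cells and at 22329 CPM in 2 cells. These values have no test.

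Of the list genes in fibroblast-like cells, 5 of 21 maturation genes were higher under CPI and 1 lower (8 and 1 with the reaction as a block), 10 of 17 processing genes were higher and 1 lower, and 2 of 7 receptor genes were higher and 1 lower, beside the 7.15% and 7.64% of all genes. Serpinh1, the collagen chaperone HSP47, was higher by 0.88 on the log2 scale (adjusted p = 0.00265), and Plod2, a lysyl hydroxylase that sets the type of crosslink, was lower with a log2 difference of -1.14 (adjusted p = 9.14e-04). Dcn, a proteoglycan that binds fibers and a marker of the class, was higher by 1.83 (1921 and 1949 against 6248 and 6763 CPM), and Sparc, a collagen-binding matrix protein, by 1.80 (6835 and 5859 against 18606 and 23149 CPM). Mrc2 was higher by 1.66 and Ddr2, a collagen-binding kinase, by 0.92.

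Within macrophage-like cells Col14a1 was the member that differed under CPI. It was at 64.4 and 65.3 CPM under isotype, 6.8 and 8.6 CPM under CPI, 60.5 and 44.0 CPM under CPI + ABT-317 and 72.8 and 82.0 CPM under isotype + ABT-317. The CPI values rest on 7 UMIs in all, and they lay below every other value. The median macrophage-like cell held 2816 and 3617 UMIs under isotype and 1469 and 1910 under CPI. It held 3261 and 4063 under CPI + ABT-317 and 2798 and 3716 under isotype + ABT-317. The same CPI sums enter the comparison with isotype, the comparison with CPI + ABT-317 and the difference between the 2 effects of ABT-317. Under CPI against isotype 0 of 13 tested members were higher and 1 lower, where 20.4% of 8488 genes passed (11.4% higher and 8.98% lower). The log2 difference of Col14a1 was -3.07 (SE 0.37, adjusted p = 3.77e-05). With the reaction as a block 30.4% of all genes passed, with 5 members higher and 1 lower: Col3a1, Col5a1, Col1a2, Col6a2 and Col1a1 were then higher by 0.62, 1.00, 0.89, 0.83 and 1.05 on the log2 scale. The fibroblast list in the same cells summed to 182 and 76.7 CPM under isotype and 250 and 177 CPM under CPI, and the part of these levels in the fibrillar values was not tested.

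The 2 macrophage-like clusters were represented unequally. The CPI cells lay in cluster 11 (157 and 153 cells), led by Ccl6 and Lyz1, and in cluster 0 (91 and 60 cells), led by Ccl3 and Ccl4, whereas cluster 11 had 5 and 3 isotype cells. In cluster 0 alone Col14a1 was at 20.7 and 15.4 CPM under CPI, from 3 and 2 UMIs, and the log2 difference from isotype was -1.95 (adjusted p = 0.0228). In cluster 11 it was at 0 and 6.0 CPM under CPI. When cells were classed one by one from their markers instead of by cluster, the log2 difference was -1.22 (adjusted p = 0.0634).

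With ABT-317 after CPI 1 member was higher and 1 lower in macrophage-like cells, where 12.3% of all genes passed (5.75% higher and 6.6% lower). Col14a1 was higher in CPI + ABT-317 than in CPI by 2.73 on the log2 scale (SE 0.40, adjusted p = 5.39e-04), by 1.62 in cluster 0 alone (adjusted p = 0.13) and by 0.31 when cells were classed one by one (adjusted p = 0.659). Col1a1 was lower with a log2 difference of -1.70 (SE 0.51, adjusted p = 0.0402), from 63.6 and 62.4 CPM under CPI and 22.7 and 16.9 CPM under CPI + ABT-317, and this call was lost when any of these 4 sums was left out. With the reaction as a block, where 20.4% of all genes passed, 1 member was higher and 5 lower, adding Col3a1, Col1a2, Col6a2 and Col6a1 with log2 differences of -0.78, -1.11, -1.12 and -1.29. The fibroblast list was at 180 and 72.4 CPM in these CPI + ABT-317 cells and at 204 and 90.1 CPM in the isotype + ABT-317 cells.

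ABT-317 after isotype left 0 of 13 members past the threshold in macrophage-like cells by edgeR, where 0.0236% of all genes passed. At an unadjusted p under 0.05 there was 1 member, DESeq2 called 0, and the block, where 1.32% of all genes passed, called Col1a1, higher by 0.80 (adjusted p = 0.0189). CPI + ABT-317 against isotype + ABT-317 also had 0 members past the threshold by edgeR, where 2.24% of all genes passed (1.86% higher and 0.377% lower), with 2 members at an unadjusted p under 0.05, 0 called by DESeq2 and Col1a1 called with the block at -1.38 on the log2 scale (adjusted p = 5.39e-04, with 7.38% of all genes past the threshold). The effect of ABT-317 under CPI minus its effect under isotype was 2.52 for Col14a1 (SE 0.46, adjusted p = 0.00607) and -2.52 for Col1a1 (SE 0.62, adjusted p = 0.0307), where 4.87% of all genes passed (2.49% higher and 2.38% lower). Neither call held in cluster 0 alone (1.41, adjusted p = 0.322, and -2.37, adjusted p = 0.275) or with cells classed one by one (0.86, adjusted p = 0.625, and -1.87, adjusted p = 0.510). Without the CPI sum of reaction 1 they were 2.32 (adjusted p = 0.0663) and -2.55 (adjusted p = 0.131), and the call for Col1a1 was also lost without any of 4 other sums. With the block, where 14.4% passed, Col3a1, Col1a2 and Col6a1 joined at -0.87, -1.67 and -1.28.

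Among the genes around the collagens in macrophage-like cells, Mrc1, the mannose receptor that takes up collagen fragments and a marker of the class, was higher under CPI by 1.88 on the log2 scale (94.8 CPM under isotype and 351 CPM under CPI, adjusted p = 1.61e-06) and lower in CPI + ABT-317 than in CPI (86.3 CPM, adjusted p = 6.13e-06). Lair1, an inhibitory receptor for collagen, was lower under CPI at -1.28 (150 CPM under isotype and 61.6 CPM under CPI, adjusted p = 6.58e-04) and higher in CPI + ABT-317 than in CPI by 0.99. Colgalt1, a collagen galactosyltransferase, was higher under CPI by 0.83 and lower after ABT-317 at -1.01, and Fn1, fibronectin, was higher by 0.56 and lower at -0.75. Mrc1 is also among the 10 leading genes of cluster 11, which held most CPI cells and few isotype cells. In cluster 0 alone Mrc1 was higher under CPI by 0.85 (adjusted p = 0.0323) and had a log2 difference of -1.02 in CPI + ABT-317 against CPI (adjusted p = 0.0416). There Lair1 had log2 differences of -0.95 (adjusted p = 0.0753) and 0.67 (adjusted p = 0.310) in these comparisons, and Colgalt1 and Fn1 turned direction, at -0.49 and -0.23 under CPI (adjusted p = 0.450 and 0.598). In CPI + ABT-317 against CPI these genes turned as well, at 0.31 and 0.036 (adjusted p = 0.747 and 0.959). In both clusters together 2 of 14 maturation genes were higher under CPI and 1 lower, 1 of 6 processing genes was higher and 0 lower, and of 4 receptor genes 1 was higher and 1 lower, beside the 11.4% higher and 8.98% lower of all genes. With the reaction as a block, where 30.4% of all genes passed, 3 maturation genes were higher and 3 lower and 3 processing genes were higher.

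Within Ptprc-negative cells 8 of 29 tested members were lower under CPI than under isotype, among them Col3a1 and the type VI chains Col6a1 and Col6a2. Col3a1 was at 1203 and 1270 CPM under isotype, 446 and 233 CPM under CPI, 746 and 660 CPM under CPI + ABT-317 and 850 and 901 CPM under isotype + ABT-317. Col6a1 was at 391 and 425 CPM under isotype, 168 and 120 CPM under CPI, 188 and 183 CPM under CPI + ABT-317 and 255 and 287 CPM under isotype + ABT-317. Col6a2 was at 389 and 408, 200 and 144, 195 and 175, and 252 and 266 CPM in the same order. For Col3a1 the 4 treatments did not overlap between reactions, whereas for Col6a2 the CPI and CPI + ABT-317 values overlapped. The CPI values rest on 53 and 35 cells and, as in macrophage-like cells, enter 3 of the comparisons.

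Under CPI against isotype 0 of 29 tested members were higher and 8 lower, where 8.37% of 14875 genes passed (3.91% higher and 4.46% lower). The log2 differences were -1.998 for Col3a1 (SE 0.21, adjusted p = 5.88e-04), -1.63 for Col6a1 (SE 0.14, adjusted p = 1.66e-04), -1.34 for Col6a2 (SE 0.14, adjusted p = 4.39e-04), -1.53 for Col5a1 (adjusted p = 0.00144), -1.58 for Col7a1 (adjusted p = 0.00460), -0.56 for Col4a1 (adjusted p = 0.00863), -0.49 for Col5a3 (adjusted p = 0.0405) and -0.80 for Col16a1 (adjusted p = 0.0473). The block, where 17.2% of all genes passed, added Col5a2 at -0.79 and Col4a2 at -0.50. DESeq2 called 1 member higher and 10 lower, where 1068 of all genes were higher and 719 lower. Without the CPI sum of reaction 2 the calls fell to 4, with Col4a1, Col5a3, Col7a1 and Col16a1 no longer past the threshold. The call for Col5a3 was lost when any 1 of the 8 sums was left out. The sizes depended on the CPI sums: without that of reaction 1 or of reaction 2 the log2 difference was -2.53 or -1.62 for Col3a1, -2.08 or -1.15 for Col5a1, -2.36 or -1.11 for Col7a1 and -1.30 or -0.45 for Col16a1. The median was -0.49 for the members, or -0.11 with genes at 0 UMIs set at their bound, and -0.07 for all genes.

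**Figure D4:**
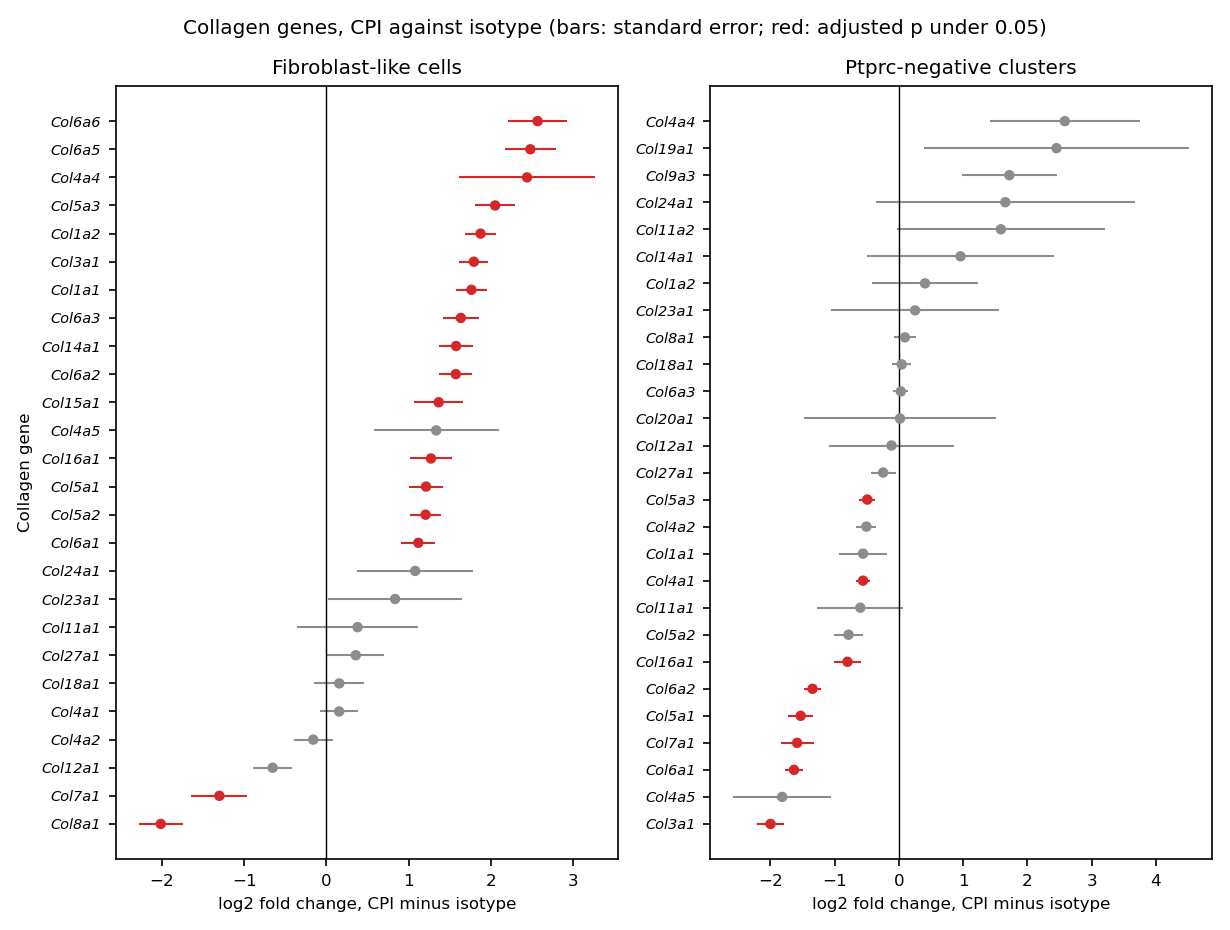
Log2 difference, CPI minus isotype, with its standard error for each tested collagen gene in fibroblast-like cells and in Ptprc-negative cells, with red points for adjusted p under 0.05 by edgeR's quasi-likelihood test. Members with 0 UMIs in a group are not drawn, and Col3a1 stands at 1.79 in fibroblast-like cells and at -1.998 in Ptprc-negative cells.

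The lower Col3a1 level under CPI was seen in the values of each cluster. In the H19-led cluster Col3a1 was at 2318 and 2441 CPM under isotype, 770 and 424 CPM under CPI (29 and 15 cells), 1418 and 1335 CPM under CPI + ABT-317 and 2109 and 2150 CPM under isotype + ABT-317. In the Hmga1-led cluster it was at 317 and 334 CPM, 136 and 73.3 CPM (24 and 20 cells), 180 and 165 CPM, and 237 and 223 CPM in that order. In the Hmga1-led cluster alone 5 of 25 tested members were lower under CPI than under isotype and 0 higher, where 2.69% of 13528 genes passed (1.11% higher and 1.58% lower): Col3a1 at -1.81, Col5a1 at -1.80, Col6a1 at -1.61, Col7a1 at -1.39 and Col5a3 at -1.04. The block gave 1 member higher and 6 lower there, with 9.89% of all genes past the threshold, adding Col1a1, higher by 1.80 (adjusted p = 0.00175), and Col6a2 at -1.15. The H19-led cells of CPI tumors were too few in reaction 2 for this test. In the H19-led cluster the leading genes of the Hmga1-led cluster summed to 689 and 733 CPM under isotype and 1381 and 2098 CPM under CPI, and those of the H19-led cluster to 2262 and 2403 against 1165 and 1581 CPM. In the Hmga1-led cluster the leading genes of the H19-led cluster summed to 122 and 143 CPM under isotype and 303 and 210 CPM under CPI. Their part in the result was not tested.

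Col3a1 was higher in CPI + ABT-317 than in CPI Ptprc-negative cells by 1.20 on the log2 scale (SE 0.21, adjusted p = 0.0180), the 1 member called higher, with 0 lower and 2.29% of all genes past the threshold (1.33% higher and 0.961% lower). With the block, where 10.3% passed, 5 members were higher and 1 lower, and without the CPI sum of reaction 2 no member passed by edgeR (Col3a1 0.83, adjusted p = 0.0592). With the leading hashtag Col3a1 was at 0.24 (adjusted p = 0.503). ABT-317 after isotype left 0 of 29 members past the threshold by edgeR, where 0% of all genes passed, with 8 members at an unadjusted p under 0.05. DESeq2 called 6 members lower, where 54 of all 14875 genes were higher and 67 lower. The block called 14 lower, with 26.9% of all genes past the threshold. The isotype cells comprised 1775 and 1846 H19-led and 1505 and 1536 Hmga1-led cells, and the isotype + ABT-317 cells 832 and 808 H19-led and 1146 and 962 Hmga1-led cells.

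CPI + ABT-317 against isotype + ABT-317 gave 1 member higher and 2 lower, where 1.58% of all genes passed (1.14% higher and 0.444% lower). Col5a3 was higher by 0.50 on the log2 scale (adjusted p = 0.0249), Col11a1 had a log2 difference of -1.48 (adjusted p = 0.0119) and Col6a1 of -0.58 (adjusted p = 0.0406). In cells with fewer than 2500 genes Col6a1 turned direction at 0.16 (adjusted p = 0.976) and Col5a3 was at 0.51 (adjusted p = 0.881). The block gave 3 higher and 11 lower, with 28% of all genes past the threshold. In the H19-led cluster alone 6 of 23 members were lower and 0 higher, where 4.62% of 13082 genes passed (2.98% higher and 1.64% lower): Col6a1 at -0.80, Col5a1 at -0.78, Col6a2 at -0.72, Col3a1 at -0.61 (adjusted p = 0.00794), Col11a1 at -1.82 and Col27a1 at -0.51. With the block 1 was higher and 14 lower in this cluster, where 34.6% of all genes passed. Each of the 3 calls in both clusters together was lost when the CPI + ABT-317 sum of reaction 2 was left out.

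The effect of ABT-317 under CPI exceeded that under isotype for 3 members and fell below it for 0, where 1.34% of all genes passed (0.692% higher and 0.645% lower). The difference was 1.64 for Col3a1 (adjusted p = 0.0245), 1.05 for Col6a1 (adjusted p = 0.0245) and 0.99 for Col5a3 (adjusted p = 0.0161). Col5a3 was at 75.2 and 75.5 CPM under isotype, 62.5 and 54.7 CPM under CPI, 76.9 and 70.7 CPM under CPI + ABT-317 and 51.1 and 50.9 CPM under isotype + ABT-317. The block gave 8 members, all higher, with 11.2% of all genes past the threshold. Without the CPI sum of reaction 2 the calls for Col6a1 and Col5a3 were lost (adjusted p = 0.1251 and 0.1202), and with the leading hashtag those for Col3a1 (0.73, adjusted p = 0.163) and Col6a1 (0.50, adjusted p = 0.164).

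Of the list genes in Ptprc-negative cells 0 of 20 maturation genes were higher under CPI and 4 lower, 1 of 18 processing genes was higher and 4 lower, and 0 of 9 receptor genes passed by edgeR or DESeq2, with 0 at an unadjusted p under 0.05, beside the 3.91% higher and 4.46% lower of all genes. With the reaction as a block, where 17.2% of all genes passed, 0 maturation genes were higher and 12 lower, and 2 processing genes were higher and 5 lower. P4ha2 had a log2 difference of -1.01 and Plod2 of -0.61. Fn1 was lower at -1.43 (adjusted p = 8.53e-05) and Dcn at -0.88, and in CPI + ABT-317 against CPI they were higher by 0.75 and 0.72.

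Endothelial-like cells were too few for a test of treatment. Col4a1 was at 2763 and 3281 CPM in the 8 and 7 isotype cells and at 4022 and 2872 CPM in the 39 and 39 CPI cells, and these ranges overlapped.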

How the data were processed

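Single-cell libraries (10x 5′ v2) of 2 reactions of pooled MC38 tumors were used. The deposited values are UMI counts per gene and barcode, which the authors made with Cell Ranger (version 3.1.0 in the submitters' processing notes, 8.0.1 in the matrix header) and did not normalize. Barcodes with at least 200 genes and under 10% mitochondrial UMIs were kept, with no upper limit on genes. Hashtags were called from a 2-component fit per tag, and barcodes with 0 or several tags were left out. The CPI tag separated least. Its lower and upper fitted means were 17.6 and 52.7 counts in reaction 1 and 10.0 and 34.8 in reaction 2. Those of the isotype tag were 40.2 and 214 in reaction 1 and 15.5 and 153 in reaction 2. The part of this weaker separation in the CPI results was not tested. The upper component of the isotype tag held 75.9% and 59.0% of all barcodes in reactions 1 and 2, the largest share of any tag. Isotype gave 10154 and 8950 of the cells with 1 tag, although the paper describes loading with hashtags represented equally. Whether isotype was called too often, and its part in comparisons with isotype, was not tested. No other doublet caller was run, so doublets within 1 treatment remain, and 49.3% of the barcodes of the fibroblast-like cluster carried several tags before this step. The 57094 cells were clustered (2000 variable genes, 30 components, 15 neighbours, Leiden resolution 0.5) without the 44 collagen and 52 list genes into 15 clusters. Clusters were named from a fixed list with at least 3 markers up 1.5-fold, each in at least 1% of the cells, and a mean log2 ratio over its markers of at least 1, leaving out clusters with over 70% of barcodes with several tags. That limit was set after the clusters were seen and left out cluster 9, a cluster of 863 cells with macrophage markers that held 0.0612% to 1.03% of the cells of a treatment. Of the cells with 1 tag, 17.9% and 9.80% lay in unnamed clusters.

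UMIs were summed per class, treatment and reaction, using sums of at least 20 cells, and tested with edgeR 4.0.16 (TMM, filterByExpr, quasi-likelihood) in R 4.3.3 over all genes, with Benjamini-Hochberg adjustment at 0.05. DESeq2 1.42.0 was an alternative. Standard errors are the log2 difference divided by the root of F. Python 3.11.15 with scanpy 1.11.5 was used otherwise. Scripts were tested on simulated counts. The members, lists and tests were chosen with earlier results of these data known. Named members are those with the highest UMI sums in each class (8 in fibroblast-like cells, 5 elsewhere), Col15a1, Col18a1, and up to 8 called members per treatment comparison. List genes are the 2 with the lowest adjusted p. Other members were named after their values were seen. The reaction number marks a shared droplet reaction and so pairs the sums. Deviations of sums of the same reaction correlated at 0.0172 to 0.192 between classes in the fit with Ptprc-negative cells summed. In the fit with pericyte-like cells and the H19-led and Hmga1-led clusters apart they correlated at -0.00313 to 0.508. Between treatments they correlated at 0.0862 in fibroblast-like, 0.132 to 0.464 in macrophage-like and 0.0468 to 0.482 in Ptprc-negative cells. Depth is given with the results, and intervals and limits cover counting error only. Alternatives were DESeq2, no count filter, the reaction block, fewer than 2500 genes per cell, a class by cell rule, the leading hashtag, all cells and each sum left out. Promoters are from RefSeq (GRCm38.p6), where 35 of the 44 symbols matched.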

Additional observations from a re-analysis of the deposited data

Results flagged for a closer look

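The effect of ABT-317 differed between CPI and isotype tumors by a test of the difference itself (edgeR's interaction term, adjusted over all genes) for 2 collagen genes in macrophage-like cells and 3 in Ptprc-negative cells. They were 2 of 13 and 3 of 29 members tested, where 4.87% and 1.34% of all genes passed. In macrophage-like cells the effect under CPI minus that under isotype was 2.52 on the log2 scale for Col14a1 and -2.52 for Col1a1. Col14a1 was at 6.8 and 8.6 CPM under CPI and between 44.0 and 82.0 CPM in the other 6 sums. The fibroblast marker list in the same sums was at 182 and 76.7 CPM under isotype, 250 and 177 CPM under CPI, 180 and 72.4 CPM under CPI + ABT-317 and 204 and 90.1 CPM under isotype + ABT-317. Over all treatments Col1a1 was at 41.6 and 22.8 CPM in macrophage-like cells, below the 116 and 61.9 CPM of T-like cells, and the part of this background in the Col1a1 value was not tested. The call for Col14a1 was lost without the CPI sum of reaction 1 (2.32, adjusted p = 0.0663), in macrophage cluster 0 alone (1.41, adjusted p = 0.322), with the leading hashtag (1.15, adjusted p = 0.193) and by the cell rule (0.86, adjusted p = 0.625). The call for Col1a1 was lost without any 1 of 5 sums: either CPI sum, either CPI + ABT-317 sum, or the isotype + ABT-317 sum of reaction 1 (-1.45, adjusted p = 0.207). It was also lost with the limit of 2500 genes per cell (-2.39, adjusted p = 0.0817), by the cell rule (-1.87, adjusted p = 0.510) and in cluster 0 alone (-2.37, adjusted p = 0.275).

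In Ptprc-negative cells the difference was 1.64 for Col3a1, 0.99 for Col5a3 and 1.05 for Col6a1. When every barcode was given its leading hashtag it was 0.73 for Col3a1 (adjusted p = 0.163) and 0.50 for Col6a1 (adjusted p = 0.164), and in the Hmga1-led cluster alone it was 0.91 for Col6a1 (adjusted p = 0.353). Without the CPI sum of reaction 1 it was 1.08 for Col5a3 (adjusted p = 0.0584).

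The antibody-tag counts of the same cells held signals that no comparison above used. They are given as the ratio to the mean of the isotype-control antibodies in the same cells. The tag for integrin α1 was at 12.1 in pericyte-like cells (11.8 to 12.3 in the 2 reactions), while the means of the other classes lay between 3.40 and 4.77, with 3.69 in T-like cells. The tag for integrin β1 was at 12.0 in pericyte-like cells (11.1 to 12.8), against 1.71 in T-like cells and 3.095 to 6.02 in the remaining classes. The tag for integrin α2 was at 3.72 in endothelial-like cells (3.40 to 4.03), and the means of the other classes lay between 0.80 and 1.53. The highest of these, in fibroblast-like cells, came from 0.993 in reaction 1 and 2.07 in reaction 2. In the RNA comparison of pericyte-like with endothelial-like cells, Itga1 was higher in the former and Itga2, from few UMIs, in the latter. That comparison did not cover the other classes.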

How the results depend on the processing

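Numbers below are collagen genes called, unless a log2 difference or a share is named. A count without the number or share of all genes, here or with the results above, cannot be set against the genes at large. Such a count is not read as a result about the collagens. Comparisons between classes kept within 1.5 times their count under every alternative run, except fibroblast-like against Ptprc-negative cells in isotype tumors alone (11). TMM and DESeq2 scaling placed the median of all genes at 0.31 and 0.14 for fibroblast-like against endothelial-like cells and at -0.05 and 0.20 for fibroblast-like against Ptprc-negative cells, so small log2 differences there depend on the scaling. Within fibroblast-like cells CPI against isotype gave 0 without a filter, where 0% of all genes passed, and 29 by the cell rule. The collagen share of the fibroblast-like class was far lower by that rule, as given below. The 29 therefore describe another set of cells. For 93 single-gene results 1426 values under alternatives were computed: 1331 kept direction and side of the threshold, 78 lost the call, 4 gained it and 13 changed sign.

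With the reaction as a replicate block the macrophage-like calls were 6 for CPI against isotype, 1 for isotype + ABT-317 against isotype, 6 for CPI + ABT-317 against CPI, 1 for CPI + ABT-317 against isotype + ABT-317 and 5 for the difference of effects. In Ptprc-negative cells the block gave 14, 6, 14 and 8 for the last 4 of these. In the H19-led cluster alone it gave 10 for isotype + ABT-317 against isotype (0 without it) and 15 for CPI + ABT-317 against isotype + ABT-317 (6 without it). Of all genes 13.9% and 34.6% passed there with the block, against 0% and 4.62% without it. In the Hmga1-led cluster alone it gave 9, 6, 12 and 6 for the last 4 comparisons, against 0, 1, 2 and 2 without it. Of all genes 13.4%, 7.02%, 23.8% and 6.36% passed there with the block, against 0.00739%, 0.931%, 1.04% and 0.377% without it. In the other collagen comparisons the block moved no count of calls by over 1.5 times.

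In macrophage-like cells no filter gave 2 for CPI against isotype, 6 for CPI + ABT-317 against CPI and 1 for CPI + ABT-317 against isotype + ABT-317. The limit of 2500 genes gave 1 for CPI + ABT-317 against CPI and 1 for the difference of effects, the cell rule 0 for CPI against isotype and 0 for the difference, the leading hashtag 2 and 1 for these, and cluster 0 alone 0 for CPI + ABT-317 against CPI and 0 for the difference. In Ptprc-negative cells DESeq2 gave 6 for isotype + ABT-317 against isotype, 3 for CPI + ABT-317 against CPI, 5 for CPI + ABT-317 against isotype + ABT-317 and 7 for the difference, and no filter gave 5, 4, 6 and 7. Of all 14875 genes DESeq2 called 54 higher and 67 lower, 358 and 463, 325 and 166, and 246 and 393 in these comparisons. The leading hashtag gave 0, 5 and 1 for the last 3, the limit of 2500 genes 0 for CPI + ABT-317 against isotype + ABT-317, the H19-led cluster alone 6 for the same, and the Hmga1-led cluster alone 5 for CPI against isotype.

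Leaving out 1 sum at a time gave ranges of 19 to 23 (fibroblast-like against endothelial-like), 25 to 28 (against Ptprc-negative), 29 to 30 (against macrophage-like), 14 to 16 (H19-led against Hmga1-led), 11 to 17 (pericyte-like against endothelial-like) and 15 to 17 (fibroblast-like, CPI against isotype). In macrophage-like cells, in the order used above, they were 1 to 7, 0 to 0, 1 to 3, 0 to 2 and 0 to 5, with the highest value for CPI against isotype reached without the isotype sum of reaction 1. In Ptprc-negative cells they were 4 to 8, 0 to 0, 0 to 2, 0 to 5 and 1 to 4, with the lowest value for CPI against isotype without the CPI sum of reaction 2.

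Signs changed for these log2 differences: fibroblast-like minus Ptprc-negative Col18a1 -0.17 (2500 genes), Col4a1 0.13 (DESeq2) and 0.61 (CPI tumors alone), Col4a2 0.34 (CPI tumors alone) and Col6a1 -0.18 (isotype tumors alone). Fibroblast-like minus macrophage-like Col14a1 was -0.036 and Col15a1 -0.39 by the cell rule. H19-led minus Hmga1-led Col14a1 was -0.07 without the H19 sum of reaction 1 and -0.11 without the Hmga1 sum of reaction 2, in a range of -0.11 to 0.98 with each sum left out. Without the H19 sum of reaction 1, Col15a1 was -0.49 and Col1a2 -0.026, in ranges of -0.49 to 1.24 and -0.026 to 0.94. Pericyte-like minus endothelial-like Col18a1 was -0.032 without the endothelial sum of reaction 1, in a range of -0.032 to 0.67, and Col6a1 in Ptprc-negative cells, CPI + ABT-317 minus isotype + ABT-317, was 0.16 (2500 genes). The collagen share of UMIs in fibroblast-like cells was 3.53% over all cells whatever their hashtags, 8.15% under 2500 genes and 0.539% by the cell rule, with 6.95% to 7.87% by reaction. It was 0.440% and 0.570% (all cells, cell rule) in endothelial-like cells, with 0.647% to 0.895% by reaction, 0.237% and 0.480% (all cells, 2500 genes) in Ptprc-negative cells, with 0.249% to 0.252%, and 0.171% (cell rule) in macrophage-like cells, with 0.0273% to 0.0504%. The cause of these changes was not tested. Treatment tests in endothelial-like cells and ABT-317 tests in fibroblast-like cells were not run with the 20-cell minimum, and a comparison without a whole reaction has values and no test.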
